A study of Mus musculus with 13 samples.

Results

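Cholesterol synthesis and uptake genes were followed in whole mouse esophagus as 30 genes taken by symbol from a table of 20054 genes. They comprise 18 enzymes of sterol synthesis, 5 genes that control the SREBP transcription factors, and 7 genes of sterol transport, storage and efflux. All 30 were found once each and all 30 passed the filter on low counts. RNA sequencing compared 6 wild-type (WT) C57/BL6 libraries with 7 libraries of dblGATA mice. The dblGATA line lacks a palindromic GATA site that controls Gata1. The deletion is in the germ line, so every cell carries it, and eosinophils do not form. Both genotypes had received 8 weeks of the carcinogen 4-NQO (4-nitroquinoline 1-oxide), followed by 8 weeks of propylene glycol vehicle, and the labels call this stage pre-cancer. Neither sex nor age is given, and nothing says that each library came from its own animal, so the p-values reflect only how these libraries vary, and that variation may be technical.

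Cells make cholesterol from acetyl-CoA through mevalonate, farnesyl diphosphate, squalene and lanosterol. When the endoplasmic reticulum runs low in sterol, SCAP carries the membrane-bound SREBP factors to the Golgi, where they are cut and released to switch on the genes of this pathway. INSIG proteins hold SCAP back when sterol is plentiful, and oxysterol-activated LXR receptors switch on efflux and block lipoprotein uptake. In squamous epithelium sterols feed the growing membranes of basal cells and the barrier lipids of the upper layers.

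Libraries held from 66339087 (dblGATA 5) to 98195869 (dblGATA 1) counts, and levels below are CPM, counts scaled to a common library size with TMM factors. Gata1 had 106 counts in WT 3, 3 to 10 in the other WT libraries and 1 to 9 in dblGATA, too few to pass the filter. Ccr3, the eotaxin receptor of eosinophils, stood at 0.251 to 1.12 CPM in WT and 0.0244 to 0.387 CPM in dblGATA. Of 8 eosinophil genes listed, 5 passed the filter. Only Ccr3 was lower at an edgeR adjusted p under 0.05, where 6.39% of all genes were. Summed over the 8 genes, levels were low and overlapped, at 2.12 to 20.3 CPM in WT and 1.05 to 4.78 CPM in dblGATA. The ribosomal RNA gene Rn18s took 10.1% of counts in WT 4, 16.9% in WT 6 and at most 3.24% elsewhere. Markers of the labelled tissue were present in every library, with summed levels of 10 basal epithelium genes at 4770 CPM or more and of 16 skeletal muscle genes at 20900 CPM or more. In bulk tissue, fewer cells of a type and less RNA per cell cannot be told apart.

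One cholesterol gene rose in dblGATA and none fell. Scap, which escorts SREBP to the Golgi, was 24.1% higher, and the remaining 29 genes did not pass (edgeR quasi-likelihood test, Benjamini-Hochberg adjusted p under 0.05). Of all 16599 genes tested, 7.1% were higher by this rule and 6.39% were lower, so 1 of 30 is no more than the background share. The split of calls moved with scaling, from 1179 higher and 1060 lower to 912 and 238 without scaling factors and 830 and 1299 with upper-quartile factors. The fold changes nevertheless leaned one way in size: 25 of 30 genes, and all 18 synthesis enzymes, had a log2 fold change above 0, as did 49.6% of all genes. At an unadjusted edgeR p under 0.05, 10 of the 30 were higher and 0 lower, where 16.6% and 15.7% of all genes were. The median log2 fold change was 0.13 over the 30 genes and -0.00 over all genes, and no member reached a 1.5-fold change.

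**Figure D1:**
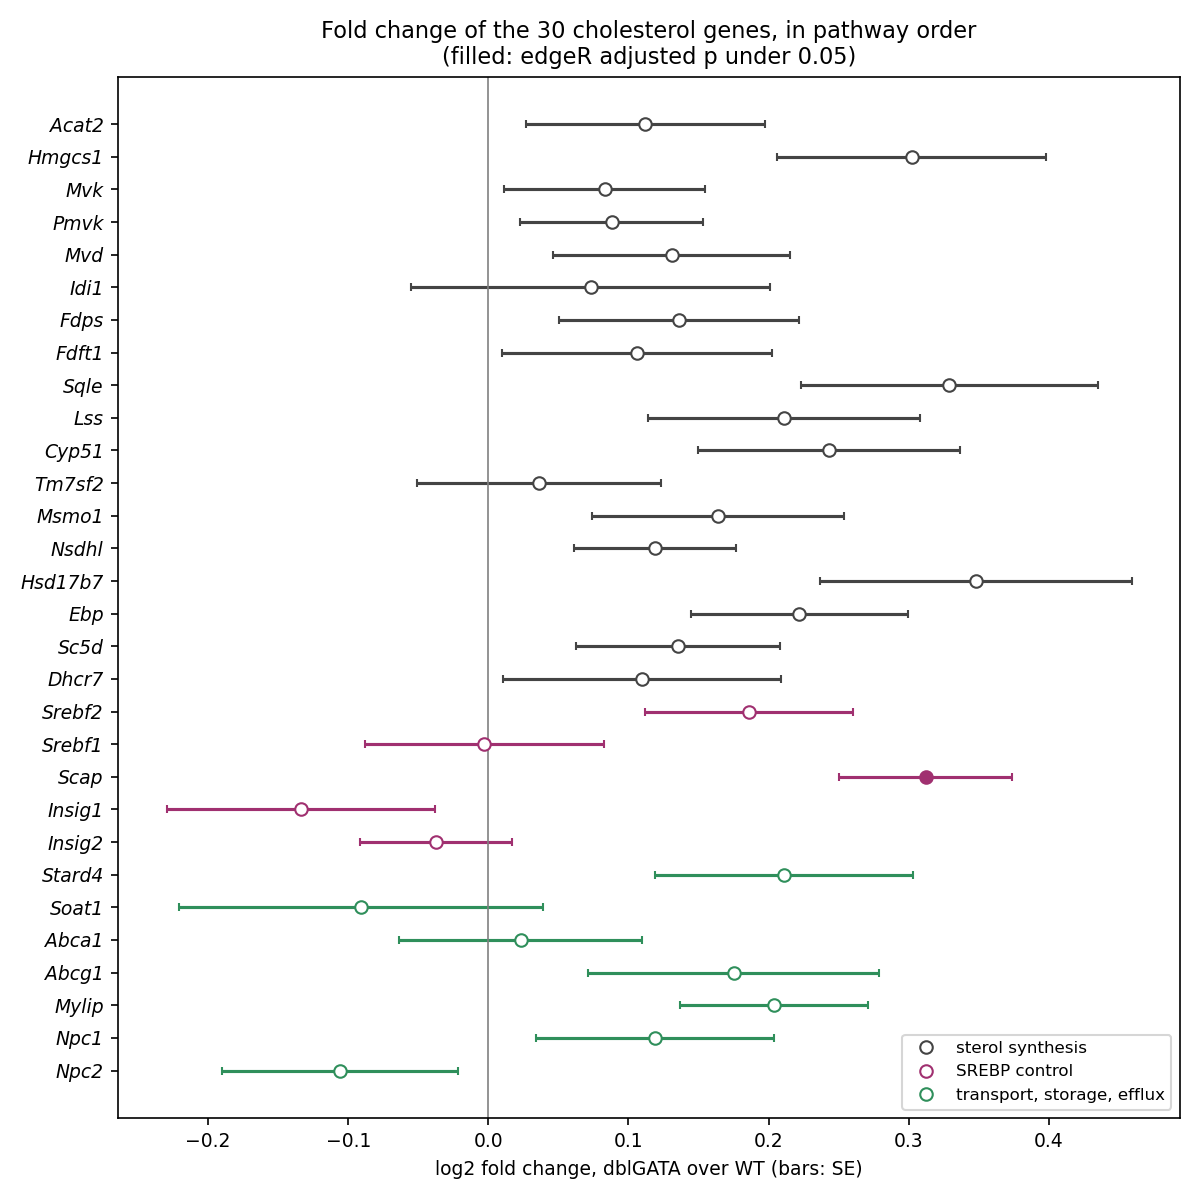
Log2 fold change (dblGATA over WT, x axis) of each of the 30 genes (y axis, pathway order) with its SE as a bar, coloured by role. The 18 synthesis enzymes all lie right of 0, and Scap, at 0.31, is the one filled point, which marks an edgeR adjusted p under 0.05.

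Scap stood at 72.9, 75.8 and 79.4 CPM (lowest, median and highest) in the 6 WT libraries and at 83.9, 90.0 and 105 CPM in the 7 dblGATA libraries. The groups did not overlap: every dblGATA library lay above every WT library, a separation that 1.95% of all genes showed in this direction and 0.711% in the other. The log2 fold change was 0.31 ± 0.06 (SE, with adjusted p = 0.0172 by edgeR), and it was the only one of the 30 whose groups did not overlap. The call held whichever single library was left out (edgeR adjusted p from 0.00744 to 0.048). The call was lost without WT 4 and WT 6 (log2 fold change 0.29, edgeR adjusted p = 0.119), a fit in which no gene of the whole table passed. Annotated exons of Scap share 785 bases, 18.6% of its exon length, with 5830462I19Rik, a gene of unclassified type on the opposite strand. The libraries were stranded, but no source used here says whether the counting used strand, so the Scap counts are uncertain there.

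The SREBP genes themselves did not pass. Srebf2, whose product drives mainly sterol genes, stood at 127, 133 and 149 CPM in WT and at 126, 155 and 172 CPM in dblGATA. The 5 dblGATA libraries numbered 2, 3, 4, 5 and 7 lay above every WT library, dblGATA 1 lay inside the WT range and dblGATA 6 was the lowest of all. The log2 fold change of Srebf2 was 0.19 ± 0.07 (SE, with adjusted p = 0.103 by edgeR). Srebf1, whose products drive mainly fatty acid genes, stood at 62.2, 70.7 and 88.8 CPM in WT and at 65.9, 68.6 and 81.6 CPM in dblGATA. Its groups overlapped throughout, with a log2 fold change of -0.00 ± 0.09 (SE, with adjusted p = 0.985 by edgeR).

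The 2 INSIG genes had fold changes below 0. Insig1, which retains SCAP and is itself a sterol-regulated SREBP target, stood at 43.6, 51.8 and 61.0 CPM in WT and at 42.2, 45.8 and 60.9 CPM in dblGATA. In dblGATA, 6 of 7 libraries lay below the WT median, and dblGATA 4 was the exception, level with the highest WT library. Insig1 had a log2 fold change of -0.13 ± 0.10 (SE, with adjusted p = 0.349 by edgeR). With 1 library left out it ran from -0.20 (without dblGATA 4) to -0.09 (without WT 3). Insig2, a second SCAP anchor, stood at 40, 42.7 and 45.8 CPM in WT and at 37.5, 42.0 and 46.0 CPM in dblGATA, with a log2 fold change of -0.04 ± 0.05 (SE, with adjusted p = 0.663 by edgeR).

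Ratios within a library set Scap beside its anchor. The log2 ratio of Scap to Insig1 counts ran from 0.26 to 0.86 in WT with a median of 0.53, and from 0.55 to 1.22 in dblGATA with a median of 1.09. Of the dblGATA libraries, 5 of 7 lay above all WT libraries, while dblGATA 4 (0.55) and dblGATA 6 (0.79) lay inside the WT range. The log2 ratio of Srebf2 to Srebf1 ran from 0.59 to 1.08 in WT and from 0.90 to 1.27 in dblGATA, with 3 of 7 dblGATA libraries above all WT libraries. These ratios were chosen after the values were seen and are given with no test.

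Promoters are printed for Scap, the gene that rose, for Hmgcs1, Hsd17b7 and Cyp51, enzymes with fold changes among the higher ones, and for Insig1, whose fold change lay below 0. Each runs 5′ to 3′ from 250 bases before to 50 bases after an annotated RefSeq start in GRCm38.p6, and Scap has 2 such starts, of which one is shown. Capitals mark matches on either strand to 4 motifs: TCACNCCAC, the core of a sterol response element (SRE) bound by SREBP; CCAAT, bound by NF-Y; GGGCGG, bound by Sp1; and CACGTG, an E-box. No 2 marked matches overlap.
Scap (chr9:110333038-110333337, plus strand): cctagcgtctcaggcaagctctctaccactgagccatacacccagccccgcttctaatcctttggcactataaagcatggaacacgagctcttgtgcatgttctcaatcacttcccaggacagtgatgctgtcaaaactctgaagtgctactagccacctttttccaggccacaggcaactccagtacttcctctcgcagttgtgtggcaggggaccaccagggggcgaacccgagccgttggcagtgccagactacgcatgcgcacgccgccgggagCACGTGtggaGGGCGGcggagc
Hmgcs1 (chr13:119690101-119690400, plus strand): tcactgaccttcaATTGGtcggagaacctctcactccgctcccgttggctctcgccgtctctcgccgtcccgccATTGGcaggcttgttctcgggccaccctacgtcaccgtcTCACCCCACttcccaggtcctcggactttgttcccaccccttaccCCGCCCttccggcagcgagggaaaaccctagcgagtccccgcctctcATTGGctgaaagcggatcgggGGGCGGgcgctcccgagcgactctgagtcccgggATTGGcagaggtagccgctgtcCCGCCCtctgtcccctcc
Hsd17b7 (chr1:169969156-169969455, minus strand): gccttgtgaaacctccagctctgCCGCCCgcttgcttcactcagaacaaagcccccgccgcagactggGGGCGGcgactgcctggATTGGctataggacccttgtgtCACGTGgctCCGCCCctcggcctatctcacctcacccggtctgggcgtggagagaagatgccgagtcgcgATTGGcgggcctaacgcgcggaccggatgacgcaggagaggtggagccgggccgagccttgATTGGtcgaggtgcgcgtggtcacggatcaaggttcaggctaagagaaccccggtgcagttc
Cyp51 (chr5:4104648-4104947, minus strand): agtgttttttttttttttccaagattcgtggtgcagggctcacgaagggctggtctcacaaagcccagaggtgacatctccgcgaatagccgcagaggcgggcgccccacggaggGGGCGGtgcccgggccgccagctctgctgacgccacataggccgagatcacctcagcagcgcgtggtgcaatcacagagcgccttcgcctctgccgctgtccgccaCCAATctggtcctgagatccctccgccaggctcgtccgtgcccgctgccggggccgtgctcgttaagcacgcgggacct
Insig1 (chr5:28071162-28071461, plus strand): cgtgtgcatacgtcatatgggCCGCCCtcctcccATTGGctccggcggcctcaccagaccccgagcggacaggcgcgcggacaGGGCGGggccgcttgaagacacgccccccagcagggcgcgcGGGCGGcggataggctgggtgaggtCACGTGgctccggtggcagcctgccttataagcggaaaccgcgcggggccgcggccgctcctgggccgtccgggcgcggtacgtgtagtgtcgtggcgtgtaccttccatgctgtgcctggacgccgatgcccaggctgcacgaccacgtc

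Promoter entries matched 24 of the 30 genes, and Fdps, Fdft1, Sqle, Stard4, Abcg1 and Npc1 had none. The SRE core occurred in 1 of the 24 (4.17%), Hmgcs1, at positions -137 to -129 from the start, against 1.44% of all 27025 genes with an entry, which include predicted and non-coding genes. CCAAT occurred in 21 of the 24 (87.5%) against 41.1% of all genes, and GGGCGG in 23 (95.8%) against 38.2%. The E-box occurred in 6 (25%) against 8.09%: Hsd17b7, Sc5d, Dhcr7, Scap, Insig1 and Abca1. All 24 passed the filter on low counts, and no share was taken over the genes that passed it. These differences therefore cannot be read as particular to cholesterol genes. Hmgcs1 carried 4 CCAAT matches, Hsd17b7 carried 3, Cyp51 and Insig1 carried 1 each, and the Scap window shown carried none. A match describes these letters in this window and says nothing about binding.

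Enzymes of the mevalonate segment came closest to the threshold at Hmgcs1. Hmgcs1, the synthase that makes HMG-CoA, stood at 178, 207 and 229 CPM in WT and at 214, 239 and 313 CPM in dblGATA. All 7 dblGATA libraries lay above the WT median, and dblGATA 2 and dblGATA 3, at 302 and 313 CPM, lay well above the rest. On the log2 scale the fold change was 0.30 ± 0.10 (SE, with adjusted p = 0.0511 by edgeR), and predicted gene Gm48342 on the opposite strand shares 16% of its exon length. Acat2, a thiolase that joins 2 acetyl-CoA, Mvk and Pmvk, the kinases that phosphorylate mevalonate, and Mvd, which decarboxylates it, had log2 fold changes of 0.08 to 0.13. Idi1, the isopentenyl diphosphate isomerase, stood at 121, 132 and 222 CPM in WT and at 133, 149 and 174 CPM in dblGATA. WT 2 held the top value, and without WT 2 its log2 fold change went from 0.07 to 0.22 (edgeR adjusted p from 0.726 to 0.0557). Without WT 1 the log2 fold change of Idi1 was 0.02. Fdps, which makes farnesyl diphosphate, had a log2 fold change of 0.14 ± 0.09 (SE, with adjusted p = 0.288 by edgeR). Predicted gene Gm43738 shares 77.4% of the annotated exon length of Fdps on the same strand, so the Fdps counts are uncertain.

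Squalene and lanosterol formation gave the next set. Fdft1, squalene synthase, had a log2 fold change of 0.11 ± 0.10 (SE, with adjusted p = 0.466 by edgeR). Ctsb, on the opposite strand, shares 20.9% of the annotated exon length of Fdft1. Sqle, squalene epoxidase and a rate-limiting step of the pathway, stood at 63.7, 67.9 and 83.1 CPM in WT and at 67.4, 85.2 and 109 CPM in dblGATA. The 4 dblGATA libraries numbered 2, 3, 5 and 7 lay above every WT library, and dblGATA 6 lay below the WT median. The log2 fold change of Sqle was 0.33 ± 0.11 (SE, with adjusted p = 0.0536 by edgeR). Lss, lanosterol synthase, had a log2 fold change of 0.21 ± 0.10 (SE, with adjusted p = 0.146 by edgeR), with dblGATA 1 the lowest of all 13 libraries and dblGATA 3 the highest.

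Past lanosterol, Hsd17b7 had the greatest fold change of the 30 genes. This 3-ketosteroid reductase of sterol C4 demethylation stood at 37.9, 41.7 and 46.8 CPM in WT and at 41.6, 52.8 and 65.2 CPM in dblGATA. For 5 dblGATA libraries Hsd17b7 lay above every WT library, dblGATA 1 lay inside the WT range, and dblGATA 6 lay just below the WT median. Its log2 fold change was 0.35 ± 0.11 (SE, with adjusted p = 0.0513 by edgeR). Cyp51, the lanosterol demethylase, stood at 116, 119 and 137 CPM in WT and at 111, 137 and 171 CPM in dblGATA, a log2 fold change of 0.24 ± 0.09 (SE, with adjusted p = 0.0912 by edgeR). Ebp, the sterol isomerase, stood at 43.0, 50.5 and 55.0 CPM in WT and at 52.5, 54.0 and 67.1 CPM in dblGATA. All 7 dblGATA libraries of Ebp lay above the WT median and 3 lay above every WT library, with a log2 fold change of 0.22 ± 0.08 (SE, with adjusted p = 0.0677 by edgeR). The other 5 enzymes of this segment, Tm7sf2, Msmo1, Nsdhl, Sc5d and Dhcr7, had log2 fold changes from 0.04 (Tm7sf2, a C14 reductase) to 0.16 (Msmo1, the C4 methyl oxidase).

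**Figure D2:**
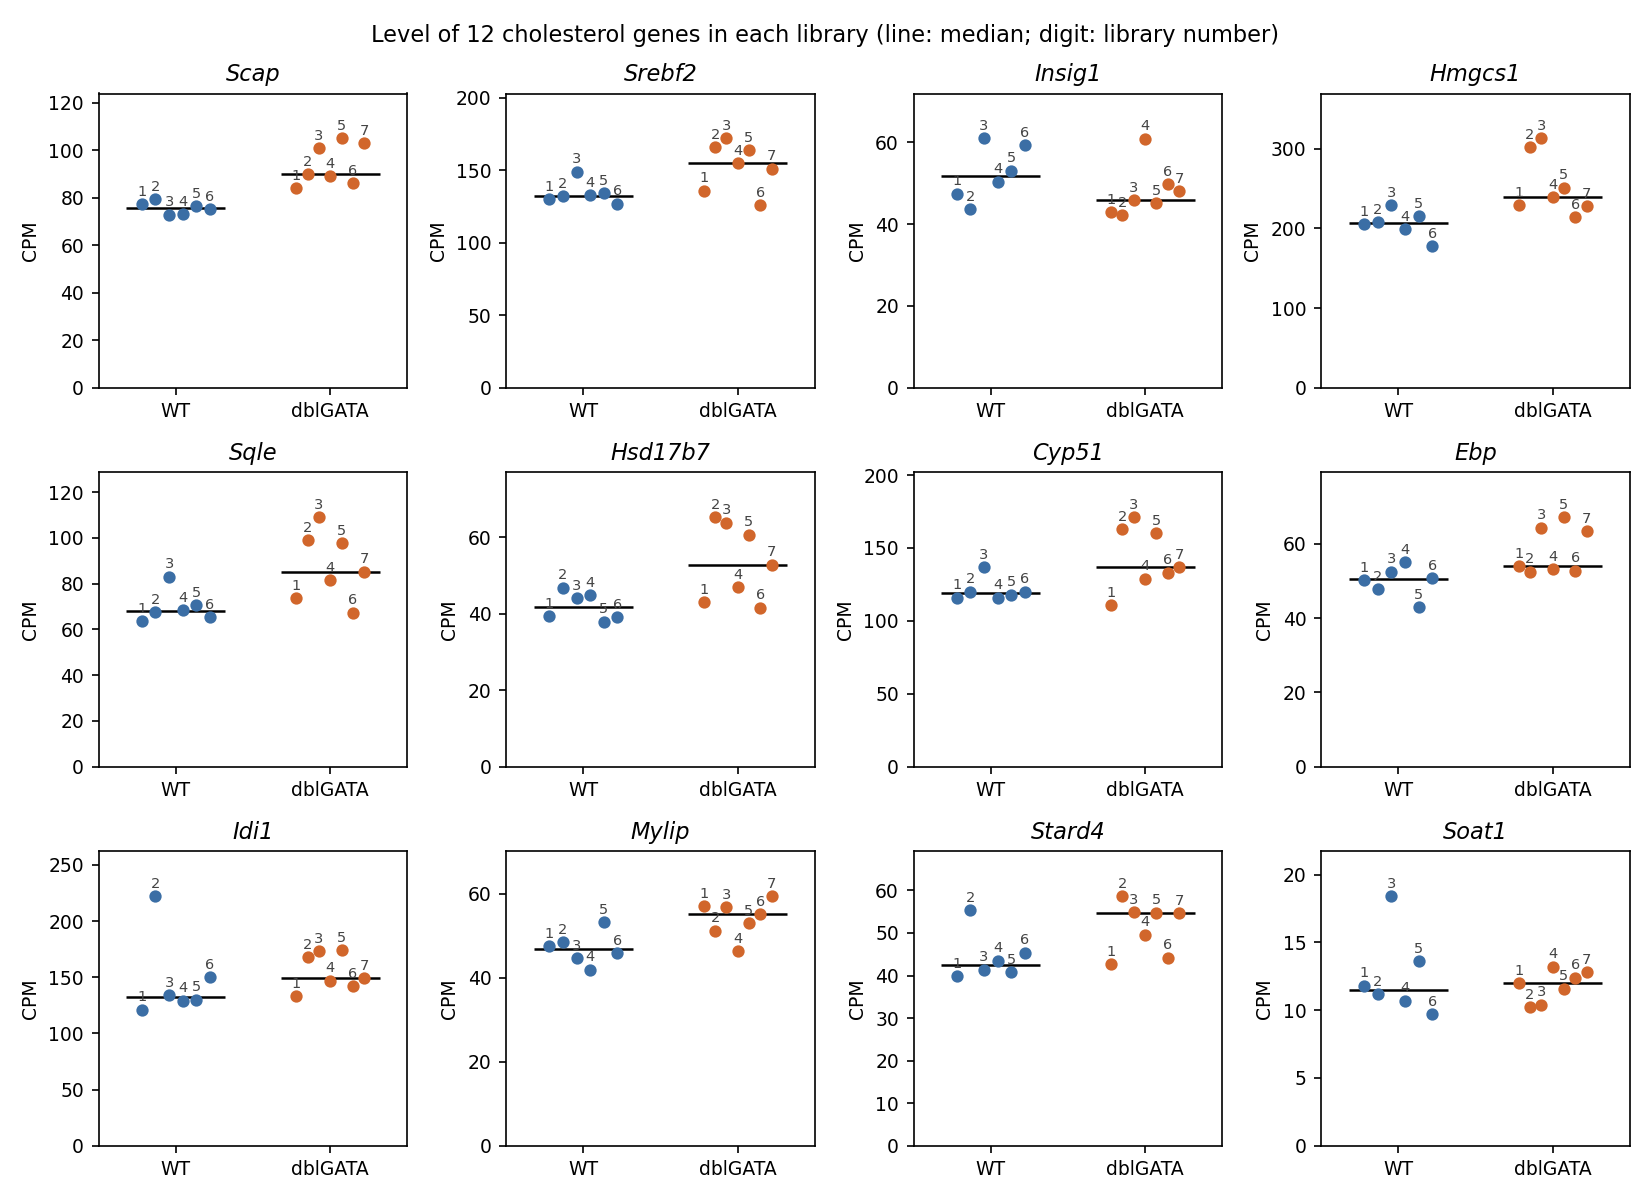
CPM (y axis, from 0) of 12 cholesterol genes in each WT and dblGATA library, with the library number beside each point and a line at the group median. Scap separates the groups, dblGATA 2, 3 and 5 top the dblGATA group for Sqle, Hsd17b7 and Cyp51, and WT 2 stands alone for Idi1 at 222 CPM and WT 3 for Soat1 at 18.4 CPM.

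Several of these calls hung on the test. DESeq2 on the same counts called 6 of the 30 higher and 0 lower, with 11.4% and 11.2% of its genes called: Scap, Hmgcs1, Sqle, Hsd17b7, Ebp and Mylip. By the authors' deposited table, 7 of the 30 were higher and 0 lower at an adjusted p under 0.05, beside 9.57% and 8.63% of its genes: those 6 and Cyp51. The authors' deposited table gave Scap a log2 fold change of 0.27 ± 0.07 (SE, adjusted p = 0.0028) and Hmgcs1 0.32 ± 0.10 (SE, adjusted p = 0.0172). With edgeR, 5 were higher without dblGATA 1 (8.72% of all genes) and 5 without dblGATA 6 (7.94%). Without WT 2 there were 4 (11.5%), and 2 each without WT 3 (5.69%), WT 5 (6.24%) or dblGATA 4 (5.31%). Among other edgeR settings, 3 were higher without scaling factors (5.49% of all genes), 2 with the authors' offsets (6.13%), 3 with at least 1 CPM in 6 libraries (8.49%) and 4 without WT 3 and WT 5 (6.16%). Hsd17b7 passed without WT 2, dblGATA 1 or dblGATA 6, and Sqle without WT 3, dblGATA 1 or dblGATA 6. No member was called lower by edgeR, DESeq2 or limma-voom, and none had a fold change below 0 at an unadjusted p under 0.05 in these 3 fits.

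Of the 7 genes of transport, storage and efflux, 5 had a log2 fold change above 0 (median 0.12) and none passed with edgeR. Mylip, the LXR-induced ubiquitin ligase that degrades the receptor for low-density lipoprotein, stood at 41.9, 46.8 and 53.3 CPM in WT and at 46.3, 55.1 and 59.4 CPM in dblGATA. In dblGATA, 6 of 7 libraries lay above the WT median, and dblGATA 4 was the exception. The log2 fold change was 0.20 ± 0.07 (SE, with adjusted p = 0.0568 by edgeR). Stard4, a soluble carrier of sterol between membranes and an SREBP target, stood at 39.8, 42.4 and 55.4 CPM in WT and at 42.7, 54.7 and 58.6 CPM in dblGATA. WT 2 alone reached the level of the higher dblGATA libraries, and without it the log2 fold change of Stard4 went from 0.21 ± 0.09 (SE, with adjusted p = 0.129 by edgeR) to 0.28 ± 0.08 (SE, adjusted p = 0.0264).

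The LXR-driven exporters differed little. Abca1, which loads cholesterol onto apolipoprotein A-I, stood at 30.2, 36.5 and 44.0 CPM in WT and at 33.3, 37.5 and 42.1 CPM in dblGATA, with a log2 fold change of 0.02 ± 0.09 (SE, with adjusted p = 0.881 by edgeR). All dblGATA values of Abca1 lay inside the WT range. Abcg1, an exporter to high-density lipoprotein, stood at 16.2, 19.7 and 21.4 CPM in WT and at 17.8, 20.3 and 27.0 CPM in dblGATA, with a log2 fold change of 0.17 ± 0.10 (SE, with adjusted p = 0.258 by edgeR). The top 3 values of Abcg1 belonged to dblGATA 5, dblGATA 7 and dblGATA 3.

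Soat1, which esterifies cholesterol for storage, stood at 9.70, 11.5 and 18.4 CPM in WT and at 10.2, 12 and 13.2 CPM in dblGATA. WT 3 held the 18.4 CPM, and without WT 3 the log2 fold change of Soat1 went from -0.09 to 0.05 with no call in either fit. That library also held Muc5b, a mucin of gland cells, at 4520 CPM against at most 20.7 CPM elsewhere. It also stood alone for the eosinophil granule genes Prg2 (10.7 CPM, at most 0.238 elsewhere) and Epx (2.05 CPM, at most 0.0208 elsewhere), and the part of these cells in the WT 3 values was not tested. Npc1 and Npc2, which pass cholesterol out of lysosomes, had log2 fold changes of 0.12 ± 0.08 and -0.11 ± 0.08 (SE, with adjusted p = 0.346 and 0.403 by edgeR). Npc1 stood at 33.2, 37.3 and 46.8 CPM in WT and at 35.9, 40.9 and 45.9 CPM in dblGATA. For both genes, all dblGATA values lay inside the WT range.

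Set per kilobase of annotated exon, levels in WT spanned from Fdps at a median of 102 CPM per kb to Soat1 at 1.37 CPM per kb. Hmgcs1 (59.3), Msmo1 (57.0) and Idi1 (43.6) followed Fdps, and the WT ranges of Hmgcs1 (51.1 to 65.8 CPM per kb) and Msmo1 (45.4 to 64.1) overlapped. Among control genes the order of median levels per kb was Srebf2 (26.1), Insig1 (19.2), Scap (17.9), Srebf1 (16.5) and Insig2 (14.5). Insig1 (16.2 to 22.6), Scap (17.2 to 18.8) and Srebf1 (14.5 to 20.7) overlapped in these WT levels per kb, whereas the Srebf2 range (25 to 29.3) lay above all 3. In dblGATA, Scap had a median of 21.3 CPM per kb (19.8 to 24.8) and Insig1 one of 17.0 (15.6 to 22.6), and these ranges overlapped too. Exon lengths came from GENCODE M21, an older release than the identifiers of the table, so these levels are approximate.

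Most synthesis enzymes were highest in the same dblGATA libraries. For 17 of the 18 enzymes the highest of all 13 libraries was dblGATA 2, dblGATA 3 or dblGATA 5, with dblGATA 3 highest for 10, and WT 2 was highest for Idi1. The median enzyme in these libraries lay 0.29, 0.36 and 0.26 above its WT mean on the log2 CPM scale. It lay at 0.15 in dblGATA 7, 0.07 in dblGATA 4, -0.01 in dblGATA 1 and -0.03 in dblGATA 6, and at -0.08 (WT 5) to 0.12 (WT 3) in WT. So dblGATA 1, 4 and 6 lay inside the WT range, and the other 4 dblGATA libraries lay above it. Insig1 did not follow: its level in dblGATA 2, 42.2 CPM, was the lowest of all libraries. In dblGATA 1, where the median enzyme lay at -0.01, Insig1 was about as low at 42.9 CPM.

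**Figure D3:**
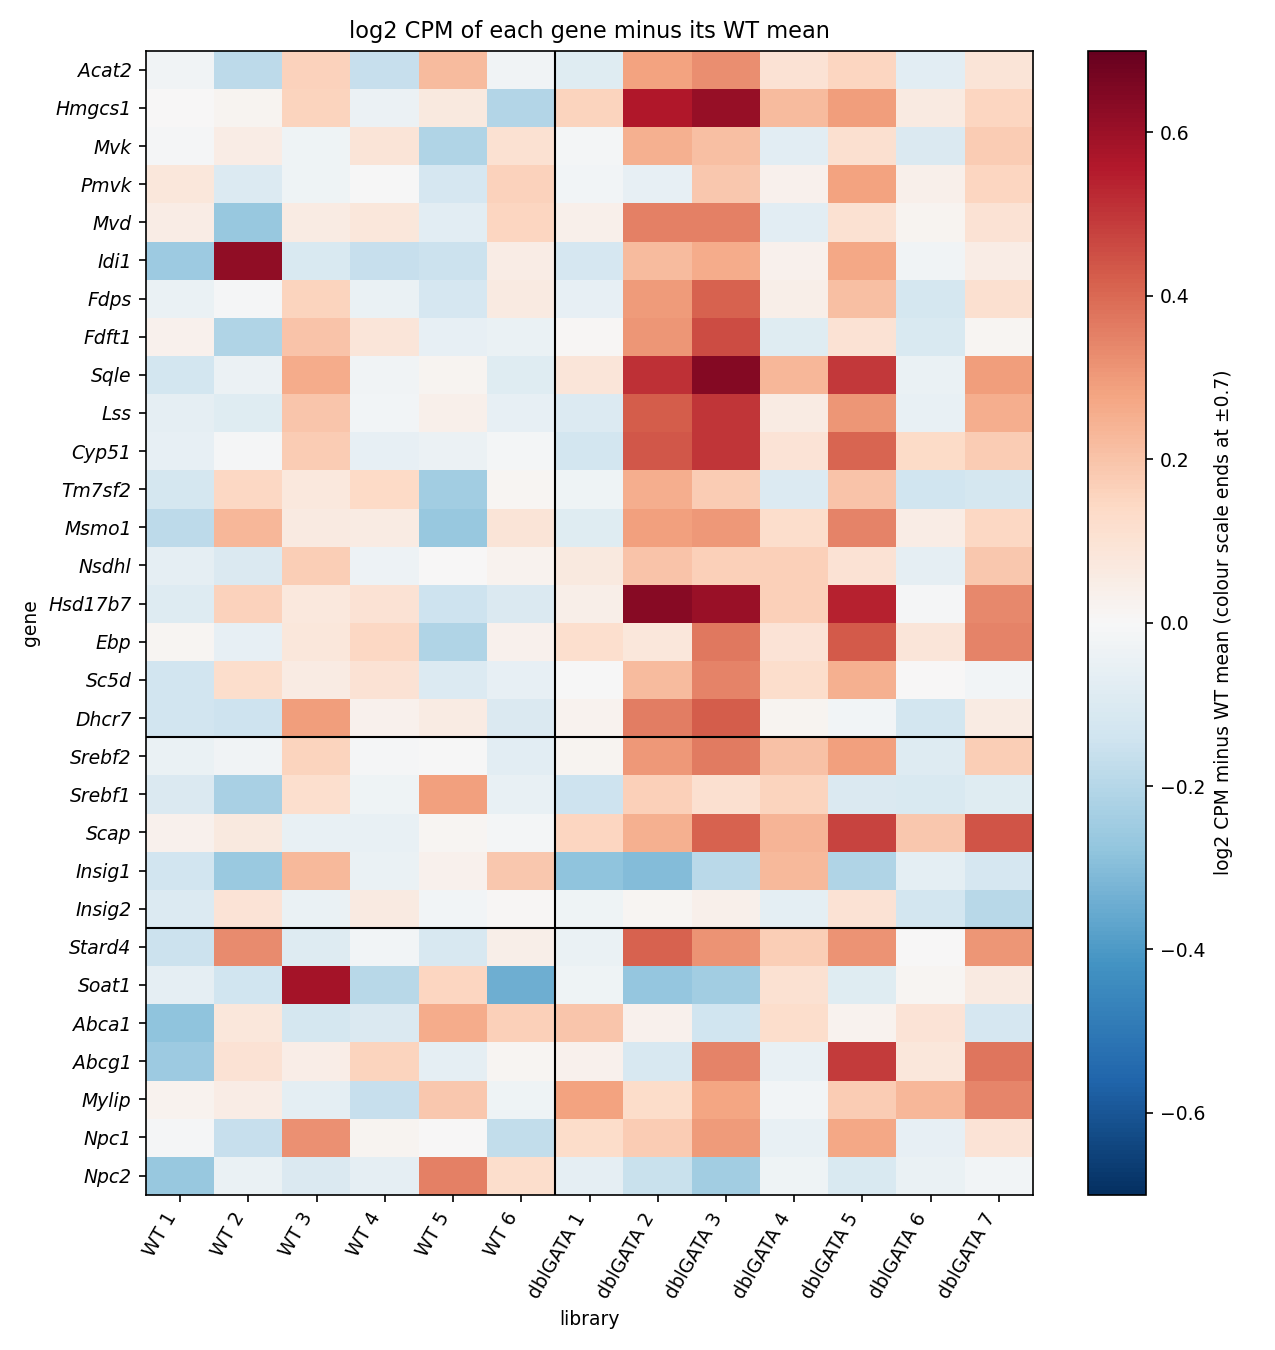
Log2 CPM of each gene (rows, by role) minus its WT mean, for every library (columns), with red above and blue below the WT mean. Most synthesis rows are red in dblGATA 2, 3 and 5 and pale in dblGATA 1 and 6. Insig1 is blue in dblGATA 2, 3 and 5 and also in dblGATA 1.

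Pan-epithelial markers were highest in the 4 libraries where the median enzyme was highest. Of 13 pan-epithelial genes 9 rose and 0 fell, and their summed level was 4430 to 5110 CPM in WT and 5530 to 8220 CPM in dblGATA. Relative to the WT mean, the pan-epithelial score (mean log2 CPM) was 0.69 in dblGATA 3, 0.60 in dblGATA 5, 0.48 in dblGATA 7 and 0.44 in dblGATA 2, and 0.13 to 0.15 in dblGATA 1, 4 and 6. Among the pan-epithelial genes, the desmosomal gene Dsp rose from a median of 1460 CPM to 2190 CPM and Cdh1, for E-cadherin, from 138 CPM to 183 CPM (adjusted p = 0.018 and 0.0359 by edgeR). The 4 dblGATA libraries with enzyme medians above the WT range were the 4 with the highest pan-epithelial scores. Of 10 basal epithelium genes 8 rose (4770 to 6930 CPM summed in WT, 6490 to 9830 in dblGATA), and of 12 cell cycle genes 7 rose (342 to 471 CPM and 494 to 653 CPM). The basal list did not follow the enzymes across dblGATA libraries. Its mean log2 CPM was highest in dblGATA 4 (8.73, enzyme median 0.07) and lowest in dblGATA 2 (8.27, enzyme median 0.29). Cell cycle genes were also highest in dblGATA 4 (mean log2 CPM 5.28). The basal keratin gene Krt5 rose from a median of 1920 CPM to 3330 CPM, and Trp63, a transcription factor of basal cells, from 120 CPM to 175 CPM (adjusted p = 0.0174 and 0.0158 by edgeR).

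Of 15 squamous differentiation genes 2 rose (25600 to 43800 CPM summed in WT, 35400 to 72700 in dblGATA). Their summed level was also highest in dblGATA 3 (72700 CPM), dblGATA 5 (56800), dblGATA 2 (51700) and dblGATA 7 (44500). By mean log2 CPM, however, dblGATA 4 (9.09) lay above dblGATA 5 (9.08) and dblGATA 7 (8.92). Of 16 skeletal muscle genes 6 fell (28300 to 52400 CPM and 20900 to 43100 CPM). Of 9 smooth muscle genes 1 fell, where 6.39% of all genes did, and the other 8 did not pass. The gene that fell was Des, with a log2 fold change of -0.54 ± 0.15 (SE, with adjusted p = 0.0332 by edgeR). Des was highest in WT 6 (3810 CPM), where Myh11 was at its lowest of all libraries (181 CPM). Neither the skeletal muscle score nor the pan-epithelial score ordered the libraries exactly as the enzymes did. Relative to the WT mean, the skeletal muscle score was -0.63 in dblGATA 4 and -0.55 in WT 2. Both lay below the -0.45 of dblGATA 3, which had the highest enzyme median. The pan-epithelial score was 0.48 in dblGATA 7 and 0.44 in dblGATA 2, where the enzyme medians were 0.15 and 0.29. Which list the enzymes follow was not tested. Acta1, skeletal muscle actin, had medians of 10800 CPM in WT and 7120 CPM in dblGATA and did not pass (adjusted p = 0.053 by edgeR). None of 10 adipocyte, 10 macrophage or 7 fibroblast genes passed. Adipocyte genes summed to 637 to 1610 CPM in WT and 378 to 1130 CPM in dblGATA, and macrophage genes to 468 to 1150 CPM and 706 to 996 CPM. Adipoq, the fat hormone adiponectin, had medians of 46.9 and 22.1 CPM, and the macrophage receptor gene Csf1r 59.9 and 67.8 CPM. No basal, squamous, pan-epithelial, muscle, adipocyte, macrophage or fibroblast marker was at 0 in any library.

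**Figure D4:**
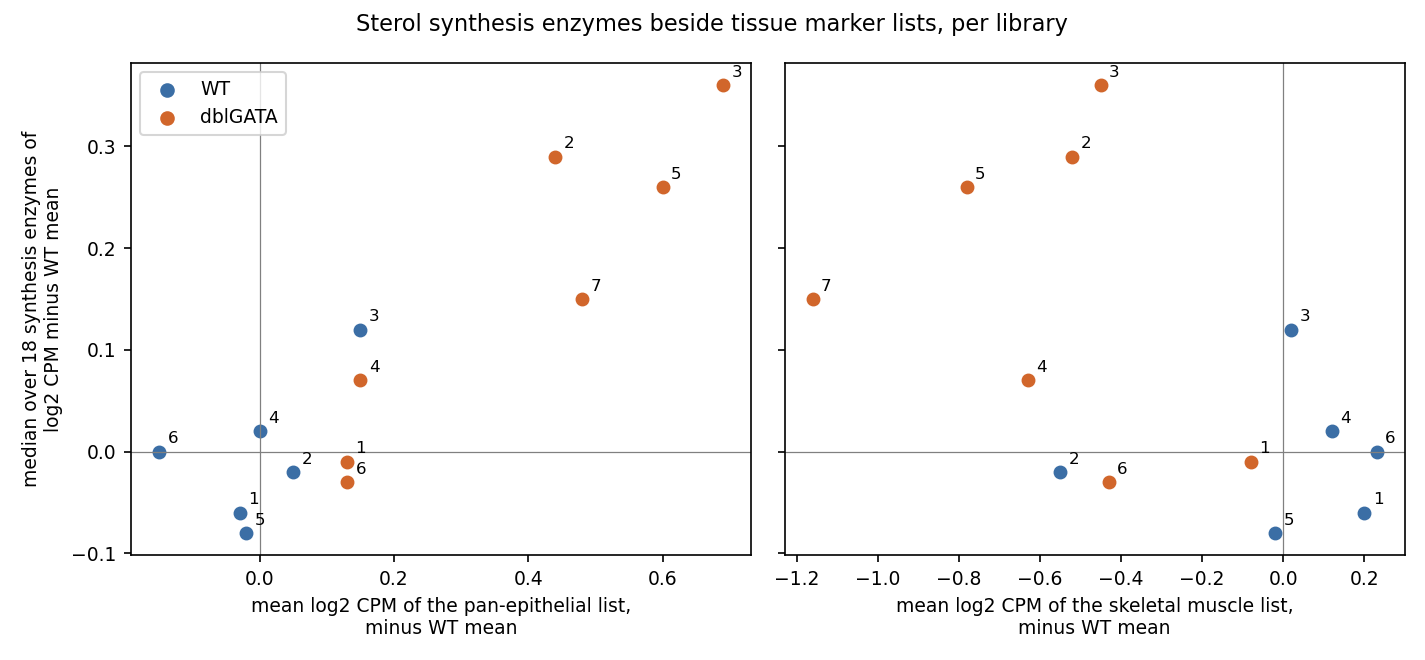
Median over the 18 synthesis enzymes of log2 CPM minus the WT mean (y axis) against the pan-epithelial score (left) and the skeletal muscle score (right), each minus its WT mean, 1 point per library with its number. dblGATA 2, 3, 5 and 7 sit at the top in both panels, at epithelial scores of 0.44 to 0.69.

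With the pan-epithelial score as a covariate, most enzymes had fold changes below 0. Of the 18 enzymes, 3 had a log2 fold change above 0 (median -0.05, range -0.16 to 0.04), and Scap stood at 0.15 ± 0.07 (SE, with adjusted p = 0.819 by edgeR). In that fit no gene of the whole table passed edgeR, and 993 genes had an unadjusted p under 0.05. The score was higher in dblGATA, so genotype and epithelial content cannot be told apart where they coincide. When the skeletal muscle score was the covariate, 17 of 18 enzymes stayed above 0 (median 0.12), with Scap at 0.18 ± 0.07 (SE, with adjusted p = 0.694 by edgeR). With Rn18s as a covariate all 18 did (median 0.17), with Scap at 0.30 ± 0.07 (SE, with adjusted p = 0.103 by edgeR). The part of tissue makeup in the genotype difference was not tested beyond these fits.

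**Figure D5:**
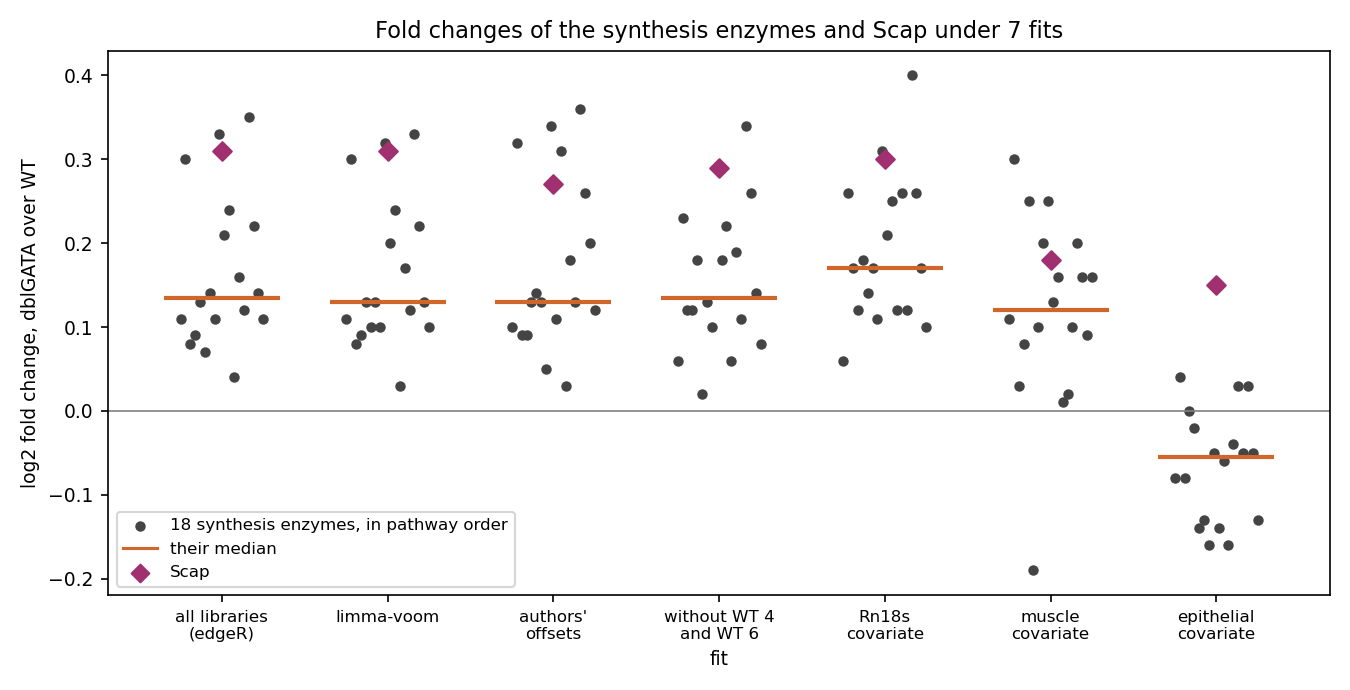
Log2 fold change (y axis, dblGATA over WT) of the 18 synthesis enzymes (dots), their median (bar) and Scap (diamond) under 7 fits (x axis). The enzymes lie above 0 in the first 5 fits, Idi1 drops to -0.19 with the muscle score, and most lie below 0 with the epithelial score, while Scap stays above 0 in all 7.

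Other genes around the pathway were read as lists, beside 7.1% of all genes tested called higher and 6.39% lower. In lists of 11 or 16 genes, 1 call is near those shares. Of 11 SREBP processing genes 1 rose and 0 fell: Erlin1, part of an endoplasmic reticulum complex that degrades sterol-regulated proteins, went from a median of 57.6 CPM (52.2 to 70.8) to 73.9 CPM (62.7 to 81.6). On the log2 scale the fold change was 0.29 ± 0.08 (SE, with adjusted p = 0.0367 by edgeR), and the median over the list was 0.02. With the pan-epithelial covariate Erlin1 stood at 0.04, and with the skeletal muscle covariate at 0.13. The proteases that cut SREBP, encoded by Mbtps1 and Mbtps2, had no call. Of 16 lipid genes that SREBP factors also drive, mostly of fatty acid synthesis, 0 rose and 1 fell (median -0.02). Acacb, the mitochondrial acetyl-CoA carboxylase of muscle and fat, had a median of 86.6 CPM (49.3 to 96.5) in WT and 56.1 CPM (43.1 to 75.7) in dblGATA. Its log2 fold change was -0.52 ± 0.15 (SE, with adjusted p = 0.0362 by edgeR). For Acacb it was -0.01 with the skeletal muscle covariate and -0.35 with the pan-epithelial covariate. Fasn and Scd1, for fatty acid synthase and a desaturase, had log2 fold changes of -0.37 and -0.60 and did not pass. Within dblGATA they ran from 170 to 384 CPM and from 116 to 430 CPM. Of the 16 genes, 8 had a log2 fold change above 0. At an unadjusted edgeR p under 0.05, 2 were higher, Fads2 (0.20) and Elovl5 (0.17), and 2 were lower, where 16.6% and 15.7% of all genes were.

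Of the lipoprotein receptors, one rose and one fell. Lrp8, a receptor of the low-density lipoprotein receptor family, rose from a median of 10.1 CPM (8.06 to 12.4) to 14.4 CPM (10.9 to 15.5), a log2 fold change of 0.45 ± 0.12 (SE, with adjusted p = 0.03 by edgeR). For Lrp8 it was 0.17 with the skeletal muscle covariate and 0.22 with the pan-epithelial covariate. Vldlr, the receptor for very-low-density lipoprotein in muscle and fat, fell from 57.2 CPM (50.7 to 63.8) to 41.4 CPM (31.7 to 51.0), with 6 of 7 dblGATA libraries below every WT library. The log2 fold change was -0.44 ± 0.10 (SE, with adjusted p = 0.0196 by edgeR). It was -0.17 with the skeletal muscle covariate and -0.30 with the pan-epithelial covariate. In all, 1 rose and 1 fell of 16 genes of uptake and lysosomal sterol handling (median 0.03), where 7.1% and 6.39% of all genes did.

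Of 11 oxysterol and LXR genes 1 rose and 1 fell (median 0.03), where 7.1% and 6.39% of all genes did. Nr1h3, which encodes LXR-alpha, stood at 12.1, 13.4 and 17.4 CPM in WT and at 9.14, 10.4 and 11.9 CPM in dblGATA, with every dblGATA library below every WT library. On the log2 scale the fold change was -0.38 ± 0.09 (SE, with adjusted p = 0.0233 by edgeR). For Nr1h3 it was -0.17 with the pan-epithelial covariate and -0.31 with the skeletal muscle covariate. Cyp7b1, an oxysterol hydroxylase, rose from a median of 5.72 CPM to 8.76 CPM, a log2 fold change of 0.63 ± 0.19 (SE, with adjusted p = 0.0413 by edgeR). For Cyp7b1 it was 0.34 with the skeletal muscle covariate and 0.57 with the pan-epithelial covariate. Of 16 genes of the isoprenoid branches 0 rose and 1 fell, and the list had a median of 0.04. In this list 12 genes had a log2 fold change above 0, where 49.6% of all genes did. At an unadjusted edgeR p under 0.05, 5 were higher and 1 lower, where 16.6% and 15.7% of all genes were. Idi2 had the greatest fold change of the list, 1.14 ± 0.47 on the log2 scale (SE, with adjusted p = 0.114 by edgeR). It stood at 1.40 to 6.98 CPM in WT and 2.06 to 15.6 CPM in dblGATA. Coq2, which attaches the polyprenyl tail of ubiquinone, had a log2 fold change of -0.18 ± 0.05 (SE, with adjusted p = 0.0344 by edgeR). For Coq2 it was -0.12 with the skeletal muscle covariate and -0.14 with the pan-epithelial covariate. All 7 of these called genes lost the call without WT 4 and without WT 6, and adjusted p by edgeR reached at most 0.0927 over the fits without 1 library. Vldlr lost it in no other fit without 1 library, Nr1h3 also without dblGATA 7, and the others in 6 to 11 of the 13 such fits.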

How the data were processed

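Per the submitters' processing notes the authors used DESeq2 1.34.0; the aligner, counter and genome build: not given in the sources used here. Per the labels' protocols, libraries were stranded and poly-A selected. The deposited table holds whole numbers, read as estimated counts rounded before deposit, because the ratio to the authors' deposited normalized signal varies by gene and library. That signal served for one alternative. The authors' deposited log2 fold changes and p-values were read as theirs.

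Genes were kept by filterByExpr (minimum count 10, minimum total 15), scaled by TMM and tested with edgeR 4.0.16 (robust glmQLFit and glmQLFTest) under R 4.3.3, adjusting over 16599 genes. The SE is the fold change over the root of F. Lowest, median and highest are over libraries. Members and lists were chosen with earlier results of these data known. All members were named by role. The rule gave full values to called members and the 4 smallest p per role, and named called genes of other lists and up to 2 defining genes per marker list. Full values of other members, and Fasn, Scd1, Mbtps1, Mbtps2, Muc5b, Ccr3, Prg2 and Epx, were added after their values were seen. So were Des, Fads2, Elovl5 and Idi2. The rule set no defining genes for the pan-epithelial list, so Dsp and Cdh1 also fell outside it. Alternatives were DESeq2 1.42.0, limma-voom 3.58.1, other factors, filters, covariates, left-out libraries and the replicate number as a block. The edgeR fit was tested on simulated data. One gene of the uptake list is not reported here and was left out of that list's count and median.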

Additional observations from a re-analysis of the deposited data

Results flagged for a closer look

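In 7 of 60 groups of libraries (30 genes, both genotypes) 1 library stood apart from the rest by the Dixon criterion at 95%, and chance flags about 1 in 20. WT 2 stood apart for Idi1, at 222 CPM against 150 CPM in the next WT library, and for Stard4, at 55.4 against 45.4 CPM. WT 3 stood apart for Sqle (83.1 against 70.5 CPM), Cyp51 (137 against 120 CPM), Srebf2 (149 against 134 CPM) and Npc1 (46.8 against 37.9 CPM). dblGATA 4 stood apart for Insig1, at 60.9 against 49.8 CPM.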

How the results depend on the processing

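The number of all genes called, 2239 with all libraries, was 3603 by DESeq2, 1150 without scaling factors and 880 with the replicate block, and ran from 357 (without WT 6) to 3828 (without WT 2). It was 0 without WT 4 and WT 6 and with the skeletal muscle, pan-epithelial or Rn18s covariate (3542, 1189, 993 and 3912 genes at an unadjusted edgeR p under 0.05). Cholesterol genes called higher, 1 with all libraries, numbered 6 by DESeq2, 3 without scaling factors, 2 with the authors' offsets, 3 with at least 1 CPM in 6 libraries, 4 without WT 3 and WT 5, 3 with the replicate block, 0 in those 4 fits, and 1 to 5 without 1 library. None was called lower in any fit. The labels do not say that replicate numbers pair libraries, and same-numbered libraries did not deviate together (r from -0.11 to 0.06, no library matching its own number best). The block called 2.99% of all genes higher and gave Hmgcs1 0.32 (adjusted p = 0.045) and Sqle 0.32 (0.0472).

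Signs turned in these members, none of them called with all libraries. With the pan-epithelial covariate log2 fold changes were -0.08 (Acat2, Mvk), -0.00 (Pmvk), -0.02 (Mvd), -0.14 (Idi1, Lss), -0.13 (Fdps, Dhcr7), -0.16 (Fdft1, Tm7sf2), -0.05 (Sqle, Hsd17b7, Sc5d), -0.06 (Cyp51), -0.04 (Msmo1), -0.03 (Srebf2), -0.09 (Abcg1), -0.11 (Npc1) and 0.01 (Npc2). With the muscle covariate they were -0.19 (Idi1), 0.04 (Srebf1), -0.01 (Stard4) and -0.00 (Abcg1). Without WT 3 and WT 5 they were -0.00 (Idi1, Tm7sf2), 0.11 (Srebf1) and 0.12 (Soat1). Srebf1 was 0.00 by limma-voom and with no filter, 0.02 with the block and 0.08 without scaling factors. Insig2 was 0.05 without scaling factors and 0.10 with the authors' offsets, Npc1 -0.07 with those offsets, and Abca1 -0.01 with upper-quartile factors. Without 1 library Tm7sf2 ran from -0.01 to 0.06, Srebf1 from -0.05 to 0.06, Soat1 from -0.16 to 0.05 and Abca1 from -0.03 to 0.08. The cause was not tested. Without scaling factors the median of the 18 enzymes went from 0.13 to 0.22, 18 rather than 10 members were higher at an unadjusted edgeR p under 0.05 (3680 rather than 2761 of all genes), and the median of all genes moved to 0.08; upper-quartile factors moved it to -0.04.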
